A study of Mus musculus with 12 samples.

Results

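The Hoxb genes, Hoxb1 to Hoxb9, were followed through retinoic acid-induced neuronal differentiation of P19 cells, a mouse embryonal carcinoma line. They were taken by name from the table of single reads, as reads of messenger RNA whose poly(A) tail passed the tail caller's quality check, and made up 9 of the 14042 genes with such reads and 7264 of 4274320 reads. The cells were wild type throughout. D0 cells were undifferentiated, and were kept in serum-containing Dulbecco's medium, whereas D2, D4 and D6 cells had spent 2, 4 and 6 days on poly-L-lysine in NDiff 227 medium with 500 nM retinoic acid. Medium and substrate changed together with retinoic acid, so their parts cannot be told apart. Each day was represented by 3 libraries, 12 in all, and P19 is a single tumour-derived line, so each result describes that line.

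RNA was read directly on nanopores, starting from the poly(A) tail, so that 1 read was 1 molecule and levels could be compared between genes without a correction for transcript length. Levels are given as CPM, reads of a gene per 1000000 kept reads with libraries scaled by the trimmed mean of M-values. The share of alignments that passed the tail caller's check differed between members. Over D4 and D6 it ran from 62.2% (Hoxb6) to 84.9% (Hoxb5) among members with enough reads for a test. Levels were not corrected for this. Libraries held 120326 to 613756 kept reads, with the fewest at D2 (120326 to 241064). By the library names in the table, each of the 13 sequencing runs held 1 day, so day and run cannot be told apart. The run names themselves did not always carry that day: the 3 runs of the D0 libraries carry the mark D2 beside the word undifferentiated or undifferentiating, and 2 of the 4 runs of the D6 libraries carry no day. The grouping follows the labels. The study's methods call the replicates biological, but neither they nor the labels say whether these were separate cultures, and p-values measure the spread between these samples only. In the marker check, the 4 tested pluripotency markers of the 7 listed were lower at D2, D4 and D6 than at D0. The summed level of the 5 listed with a read, Nanog included, went from between 2140 and 2343 CPM at D0 to between 178 and 225 at D6. Nearly all of the D6 sum was Sox2, which went from 266 ± 17.8 to 198 ± 22.5 CPM. At D6 Pou5f1 stood at 0.915 CPM and Dnmt3b at 2.60, and Nanog and Utf1 had no read. The summed level of 7 neuron markers was 466 to 509 CPM at D0 and 123 to 218 at D2, then 959 to 1171 at D4, and it ended between 2227 and 2327 at D6. Glial markers summed to at most 37.2 CPM in any library, endoderm markers to at most 8.21 and mesoderm markers to at most 2.75. Sox17, Gata4, T, Mesp1 and Aqp4 had no read in any library, and neither had the pluripotency markers Dppa5a and Zfp42.

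Hox genes encode homeodomain transcription factors that give cells of the embryo their position along the head-to-tail axis. Within a cluster the genes lie on the same strand, and those at the 3′ side are known to be switched on earlier and further towards the head than those at the 5′ side, an arrangement called collinearity. In the hindbrain and spinal cord retinoic acid is a known inducer of the 3′ genes, acting through receptors that bind paired AGGTCA-like sites. On the mm10 build the members ran from Hoxb9 at the 5′ side to Hoxb1 at the 3′ side over 96.8 kb of the plus strand (chr11:96271457-96368256).

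The last 30 bases of the main transcript of each member are shown because reads were sequenced from the tail, which for most reads of the tested members followed this window or lay within 30 nt of it. Capitals mark AATAAA, the canonical polyadenylation signal.
Hoxb1, chr11:96368227-96368256: attgcAATAAAgtctgtttttctccctctc
Hoxb2, chr11:96353983-96354012: catagcgtaAATAAAtgtctttataatatg
Hoxb3, chr11:96347901-96347930: tcttgAATAAActttctgttattaatttta
Hoxb4, chr11:96321609-96321638: aAATAAAtgtttggtttcttgtgaccatca
Hoxb5, chr11:96306091-96306120: ttgaagttgAATAAAtgtttcccccactcc
Hoxb6, chr11:96301540-96301569: ataataatAATAAAgatgtgaaaactcgca
Hoxb7, chr11:96290133-96290162: ggatggaaAATAAAacaggattaaatatca
Hoxb8, chr11:96285286-96285315: gcggaagagttacAATAAAgtttacaagcg
Hoxb9, chr11:96276566-96276595: aacaaaaaatatacatatcactctagaaaa
The signal stood in this window in 8 of 9 members, and in 56.6% of the 9201 tested genes whose most-read transcript could be matched to the reference. Hoxb9 held none. The absence says only that these letters are not in the window.

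Start-site sequence was at hand for 3 of the 9 members and is shown because these genes were read at such different levels and times. The 250 bases before the start of each are from RefSeq (GRCm38.p6, plus strand). Capitals mark, on either strand, the half-site of retinoic acid receptors (AGGTCA), the core promoter element known as TATA box (TATAAA) and a sequence bound by Hox and Pbx proteins together (TGATNNAT).
Hoxb1, chr11:96365508-96365757: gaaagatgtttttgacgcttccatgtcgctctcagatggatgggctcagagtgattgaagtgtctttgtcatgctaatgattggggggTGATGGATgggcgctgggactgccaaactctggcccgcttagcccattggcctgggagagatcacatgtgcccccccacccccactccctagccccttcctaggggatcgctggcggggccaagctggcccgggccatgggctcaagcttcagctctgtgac
Hoxb4, chr11:96318017-96318266: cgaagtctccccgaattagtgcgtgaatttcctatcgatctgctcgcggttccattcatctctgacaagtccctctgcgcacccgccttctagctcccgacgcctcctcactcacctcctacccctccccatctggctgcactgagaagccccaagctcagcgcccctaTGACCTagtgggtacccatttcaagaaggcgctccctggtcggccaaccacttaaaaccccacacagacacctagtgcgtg
Hoxb8, chr11:96281655-96281904: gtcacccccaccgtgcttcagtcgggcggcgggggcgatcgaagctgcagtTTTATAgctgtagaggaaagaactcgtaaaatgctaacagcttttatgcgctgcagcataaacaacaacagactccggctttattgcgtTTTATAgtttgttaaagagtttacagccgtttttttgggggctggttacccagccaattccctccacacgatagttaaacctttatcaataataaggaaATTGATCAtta
AGGTCA was found once, 81 to 76 bases before the start of Hoxb4, and in 14.0% of 32851 promoters of the same length. TATAAA was found at 2 places before Hoxb8 and in 12.4% of promoters. TGATNNAT was found once before Hoxb8, once before Hoxb1 and in 7.68% of promoters. The paired form AGGTCANNNNNAGGTCA was found before none of the 3 and in 3 of the 32851 promoters. None of the 3 motifs in capitals overlapped another in these windows, and a match is no evidence of binding.

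Together the members had 1 read in the D0 libraries, then 401 (D2), 2366 (D4) and 4496 (D6). Their summed level started from 0.614 ± 1.06 CPM (mean ± SD, n = 3). It reached 695 ± 123 by D2, 2166 ± 85.8 by D4 and 4021 ± 198 by D6. The libraries of successive days did not overlap. Of all kept reads they made up 0.0708 ± 0.0124% at D2 and 0.431 ± 0.0318% at D6. In such bulk samples, more cells transcribing a gene and more RNA per cell cannot be told apart. The neuron markers above rose from D2 to D6 as well, and their part in the Hoxb levels was not tested.

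Of the members, 8 had the 30 reads needed for a test. In the limma-voom fit over all 12 libraries, 8 of 8 were higher at D2 than at D0, against a background of 4.69% of the 9309 genes tested. These 8 had 0 or 1 read at D0 and passed the filter through the later days alone, so their direction against D0 was set by the filter and their count is given as a description. The same 8 were higher at D4 (background 12.9%) and at D6 (19%), and 0 of 8 were lower (background 6.16%, 12.5% and 18.7%). Since 7 of them had no read at D0, fold changes against D0 are given as bounds against 3 reads in each D0 library, which stood at 6.39 CPM on average.

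**Figure D1:**
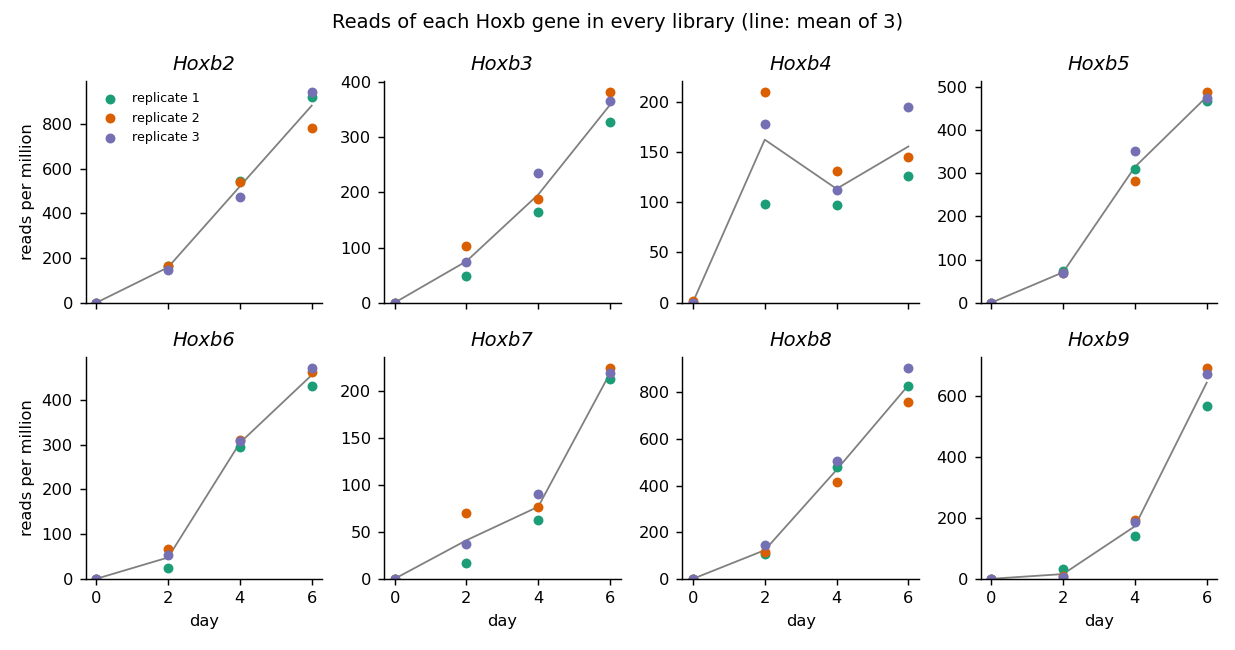
Levels in CPM of Hoxb2 to Hoxb9 (y axes, each with its own scale from 0) against day (x axes), with 1 point per library coloured by replicate and a line through the mean of the 3 libraries of a day. The points lie at or near 0 at D0, and at D6 the highest mean is that of Hoxb2, with points between 782 and 944, while Hoxb4 alone has its highest mean at D2.

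Hoxb1, the most 3′ member, which patterns part of the hindbrain, was almost unread. It had 1 read at D2 (replicate 2), 1 at D4 (replicate 1) and none at D0 or D6. Both reads were placed with mapping quality 60. A level below 3 reads in a library was not detectable at this depth.

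Hoxb2, which acts in hindbrain segments, was the most abundant member at D4 and D6. In the 3 libraries of each day it stood at 164, 165 and 147 CPM at D2, at 547, 542 and 472 at D4, and at 919, 782 and 944 at D6. No 2 days overlapped. Its mean level of 882 ± 87.4 at D6 was at least 138-fold higher than at D0. It rose by 1.69 ± 0.18 on the log2 scale from D2 to D4 (estimate ± SE, adjusted p = 1.43e-10) and by 0.75 ± 0.11 from D4 to D6 (adjusted p = 8.54e-07).

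Hoxb3, which is expressed from the hindbrain backwards, stood at 49.3, 103 and 73.3 CPM at D2, at 164, 189 and 235 at D4, and at 328, 383 and 365 at D6. The days were again separate, and the D6 mean of 358 ± 28.0 was at least 56.1-fold higher than D0. The rise from D2 to D4 was 1.31 ± 0.26 (adjusted p = 0.000433) and that from D4 to D6 was 0.86 ± 0.15 (adjusted p = 2.56e-05), both log2. By limma-trend the second step was 0.88 and did not pass (adjusted p = 0.0951).

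Hoxb4, whose expression is known to begin in the posterior hindbrain, followed another course. It stood at 98.5, 209.9 and 178 CPM at D2, at 96.7, 131 and 112 at D4, and at 126, 145 and 195 at D6. The libraries of all 3 days overlapped, and at D2 it was the member with the highest mean, 162 ± 57.4, overlapping with Hoxb2 at 158 ± 10.3. It was also the only member with a read at D0, 1 read in replicate 2 whose barcode confidence was 0.501. Against that read its level at D2 was 248.95-fold higher, with an exact 95% counting interval of 43.6 to 9933. From D2 to D4 the log2 change was -0.54 ± 0.23 (adjusted p = 0.206) and from D4 to D6 it was 0.42 ± 0.20 (adjusted p = 0.199), neither past the threshold. Without replicate 1 of D2, the library with the fewest reads, the first change was -0.76 and passed (adjusted p = 0.0444).

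Hoxb5 and Hoxb6, of the middle of the cluster and known from cervical and thoracic levels of the trunk, ran close together. Hoxb5 stood at 73.9, 70.0 and 68.0 CPM at D2, at 311, 282 and 351 at D4, and at 468, 490 and 475 at D6. Hoxb6 stood at 24.6, 65.9 and 52.3, then at 294, 310.4 and 307, and at D6 at 432, 462 and 472. Neither gene had overlapping days, and at D4 and D6 the libraries of both genes overlapped each other. From D2 to D4 Hoxb5 rose by 2.11 ± 0.24 and Hoxb6 by 2.56 ± 0.29 on the log2 scale (adjusted p = 1.2e-09 for each). From D4 to D6 Hoxb5 rose by 0.61 ± 0.13 (adjusted p = 0.000526) and Hoxb6 by 0.58 ± 0.13 (adjusted p = 0.00121). With reads of mapping quality of at least 10 only, which left out 58.3% of Hoxb5 and 79.7% of Hoxb6 reads, the step from D4 to D6 was 0.20 for Hoxb5 and -0.17 for Hoxb6 and neither passed. Under the same filter Hoxb6 also lost its call at D2 against D0 (adjusted p = 0.313).

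Hoxb7, another trunk gene, had the lowest level of the tested members at D4, with 63.1, 76.4 and 90.8 CPM, after 16.4, 70.0 and 36.6 at D2. With mapping quality of at least 10 Hoxb9 had fewer reads at D4, 48 against 85 for Hoxb7. That filter left out 82.6% of Hoxb9 reads but 0.559% of Hoxb7 reads. Over D4 and D6, 63.7% of Hoxb7 alignments passed the tail caller's quality check, beside 79.4% for Hoxb4, the next lowest at D4. At D6 Hoxb7 stood at 213, 225 and 220. D2 and D4 overlapped and their log2 difference of 0.85 ± 0.36 did not pass (adjusted p = 0.205), whereas D6 was apart from both and 1.47 ± 0.20 higher than D4 (adjusted p = 1.06e-07).

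Hoxb8, also known from blood progenitors, had libraries that overlapped with those of Hoxb2 at D4 and D6, with 5 genes between them on the chromosome. At D2 the ranges of Hoxb8 and Hoxb2 only met, at 147 CPM, with Hoxb2 the higher. It stood at 107, 115 and 147 CPM at D2, at 479, 415 and 507 at D4, and at 829, 757 and 906 at D6. Its D6 mean of 830.4 ± 74.7 was at least 130-fold higher than D0. The rises were 1.89 ± 0.20 from D2 to D4 (adjusted p = 1.12e-10) and 0.82 ± 0.11 from D4 to D6 (adjusted p = 1.87e-07), both log2.

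Hoxb9, the most 5′ member, which acts in the thoracic region, had the fewest reads of the tested members at D2. On that day it had 4, 2 and 1 reads, or 32.8, 8.23 and 5.23 CPM, against 139, 191 and 186 at D4 and 566, 691 and 670 at D6. These values did not overlap between days. The call at D2 against D0 (adjusted p = 0.000887, at least 2.42-fold) rested on those 7 reads. Without replicate 1 of D2, which held 4 of them, the bound was 1.05-fold (adjusted p = 0.0270). The call was lost when every library was thinned to the smallest (adjusted p = 0.521) or with mapping quality of at least 10 (adjusted p = 0.217). Hoxb9 rose by 3.77 ± 0.50 from D2 to D4 (adjusted p = 1.01e-07) and by 1.87 ± 0.15 from D4 to D6 (adjusted p = 1.23e-15). With mapping quality of at least 10, which left out 82.6% of Hoxb9 reads, these steps were 3.14 and 1.24 and both passed (adjusted p = 0.0136 and 0.00795). In all reads both steps were the largest log2 estimates among the 8. Under that filter Hoxb7 had the larger step from D4 to D6 (1.64). From D2 to D4 the filtered estimate was larger for Hoxb6 (4.28 ± 0.78). It rested on 1 Hoxb6 read at D2, beside 2 Hoxb9 reads, so the steps of these genes could not be ranked.

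From D2 to D4, 6 of 8 members were higher, against 2.03% of all genes tested, and 0 were lower, against 1.07%, and the median log2 change was 1.79 over the members and 0.04 over all genes. From D4 to D6, 7 of 8 were higher, against 4.13% of all genes, with medians of 0.79 and 0.00. By limma-trend in place of voom weights, 4 of 8 passed from D4 to D6, against 1.36% of all genes by that method. Hoxb3, Hoxb5 and Hoxb6 lost their calls (adjusted p = 0.0951, 0.195 and 0.323), while their estimates of 0.88, 0.60 and 0.58 were close to those by voom. The 2 comparisons share the D4 libraries.

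Levels were next set against the mean at D6 of the same gene. At D2, Hoxb4 stood at 104 ± 36.9% of its D6 level. Hoxb2, Hoxb3, Hoxb5, Hoxb6, Hoxb7 and Hoxb8 stood between 10.4 ± 4.61% (Hoxb6) and 20.96 ± 7.50% (Hoxb3), and Hoxb9 at 2.40 ± 2.36%. At D4, Hoxb7 (35.0 ± 6.32%) and Hoxb9 (26.8 ± 4.49%) were below the others, which ran from 54.6 ± 10.1% (Hoxb3) to 72.9 ± 11.2% (Hoxb4). Hoxb9, at the 5′ end, had the lowest mean fraction at both days, but at D4 its libraries overlapped with those of Hoxb7. With mapping quality of at least 10, Hoxb9 had 2 reads at D2 and 112 at D6, and Hoxb6 had 1 and 80. Which of them was lowest at D2 could not be told from so few reads. The filtered step from D4 to D6 was larger for Hoxb7 (1.64 log2) than for Hoxb9 (1.24), so that Hoxb9 was not the furthest below its D6 level at D4. Under that filter Hoxb6 was no lower at D4 than at D6 (-0.17). In all reads the genes from Hoxb2 to Hoxb8 showed no step-by-step order. Hoxb7 was below Hoxb8, its neighbour on the 5′ side, at D4 (56.3 ± 5.68% for Hoxb8) but not at D2, where Hoxb7 had 18.7 ± 12.3% and Hoxb8 14.8 ± 2.52% with overlapping libraries. Without replicate 2 of D2 the Hoxb7 mean at that day was 12.1%, and without replicate 1 that of Hoxb9 was 1.05%. With 3 libraries against 3 an exact permutation test cannot give a p below 0.1, and these fractions are given without one.

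**Figure D2:**
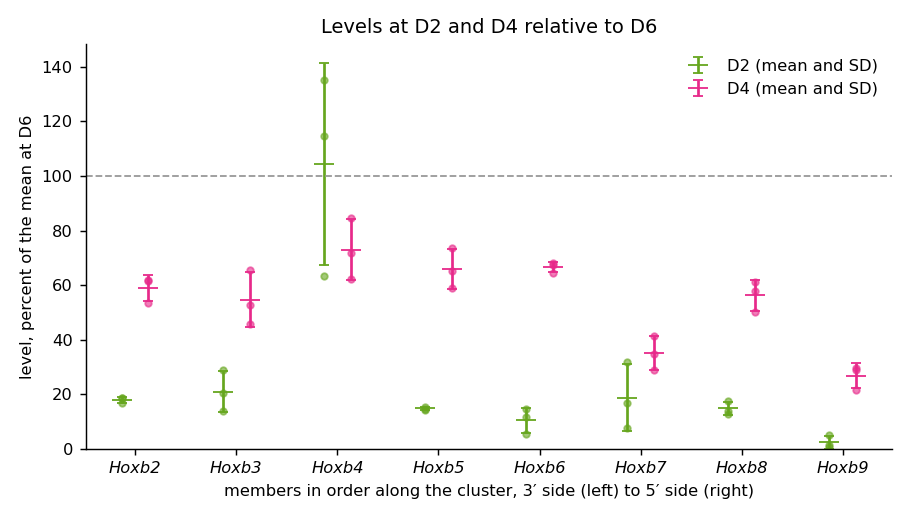
Level at D2 and D4 as a percent of the mean level at D6 (y axis) for Hoxb2 to Hoxb9 in the order of the cluster (x axis), with points for libraries and bars for the mean and SD of 3. At D2, Hoxb4 lies near 100% with a wide spread and Hoxb9 near 2.40%, and at D4 the lowest are Hoxb9 and Hoxb7.

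The make-up of the Hoxb reads moved accordingly. Hoxb4 was 22.8 ± 4.72% of Hoxb reads at D2, 5.23 ± 0.809% at D4 and 3.84 ± 0.683% at D6. Hoxb9 was 2.52 ± 2.84%, 7.93 ± 1.19% and 15.97 ± 1.51%. Hoxb2, by contrast, held 23.3 ± 4.89%, 24.1 ± 2.81% and 21.9 ± 1.92%. At D6 the order by level was Hoxb2, Hoxb8, Hoxb9, Hoxb5, Hoxb6, Hoxb3, Hoxb7, Hoxb4 and Hoxb1, in which only the pairs Hoxb2 with Hoxb8 and Hoxb5 with Hoxb6 had overlapping libraries. Order and shares depended on the reads of low mapping quality, which lay mostly on Hoxb5, Hoxb6 and Hoxb9, whose reads divided between overlapping transcripts. Mapping quality was under 10 for 58.3%, 79.7% and 82.6% of their reads, and for at most 4.93% of those of any other member. The filter therefore lowered these genes against the rest. Whether the reads it left out were unclear only between transcripts of the same gene was not tested. With mapping quality of at least 10, Hoxb9 was 1.09 ± 1.89%, 2.74 ± 0.402% and 3.76 ± 1.14% of Hoxb reads at D2, D4 and D6, and the order by reads at D6 was Hoxb2, Hoxb8, Hoxb3, Hoxb7, Hoxb5, Hoxb4, Hoxb9 and Hoxb6.

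**Figure D3:**
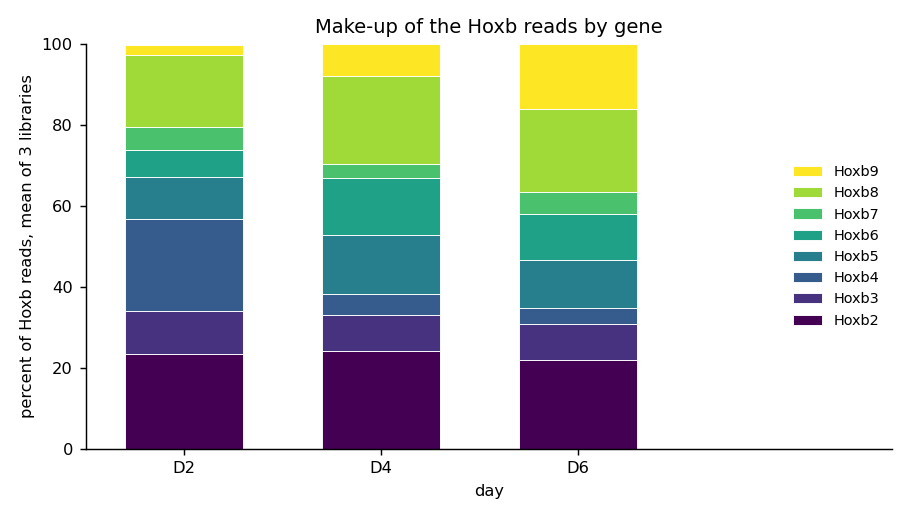
Share of each gene in the Hoxb reads (y axis, percent, mean of 3 libraries) at D2, D4 and D6 (x axis), stacked in cluster order from Hoxb2 at the bottom. The Hoxb4 band narrows from 22.8% to 3.84% and the Hoxb9 band widens from 2.52% to 15.97%.

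The tails of the Hoxb transcripts were compared between D4 and D6, the days with enough reads. Hoxb3 had the long ones. Its median tail was 213, 184 and 208 nucleotides (nt) in the D4 libraries and 209.6, 209.5 and 212 nt in the D6 libraries, whereas the other 7 members lay between 86.3 and 146 nt in all 42 values. Every Hoxb3 library was above every library of the others. With a mean of 202 ± 15.7 nt, Hoxb3 ranked first among 3254 genes at D4, where the median gene had 106 nt. It ranked 4 at D6 with 210.4 ± 1.46 nt against 111 nt. The ranking was made after the long tails of Hoxb3 had been seen. Over the other settings its rank ran from 1 to 5 at D4 and from 1 to 16 at D6, the lowest rank being among 5233 genes with at least 5 reads per library. Tails over 150 nt made up 59.5 to 70.9% of Hoxb3 reads in these 6 libraries and 13.3 to 47.8% of the reads of the others. At D2, where Hoxb3 had 6, 25 and 14 reads, its medians were 257, 162 and 167 nt.

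The next longest was Hoxb4, at 127 ± 15.3 nt at D4 and 139 ± 5.83 nt at D6. Hoxb5 had the shortest median at D4, 100.3 ± 12.9 nt, and stood at 113 ± 7.34 nt at D6. From D4 to D6 the median tail of the 8 members differed by 1.21 nt (Hoxb2) to 17.2 nt (Hoxb7), all estimates being positive, with a member median of 8.54 nt beside 4.12 nt over all genes. By limma on the medians 0 of 8 passed, nor did any of the 3254 genes (0.0%), of which 223 had a longer and 36 a shorter tail at D6 by the unadjusted p at 0.05. The smallest adjusted p among members was 0.721, for Hoxb7, whose difference had an SE of 9.54 nt. Tails under 30 nt made up 1.25 to 6.22% of the reads of a member at D4 on average and 1.46 to 3.94% at D6, beside 3.41 ± 0.624% and 3.29 ± 0.452% of all kept reads.

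**Figure D4:**
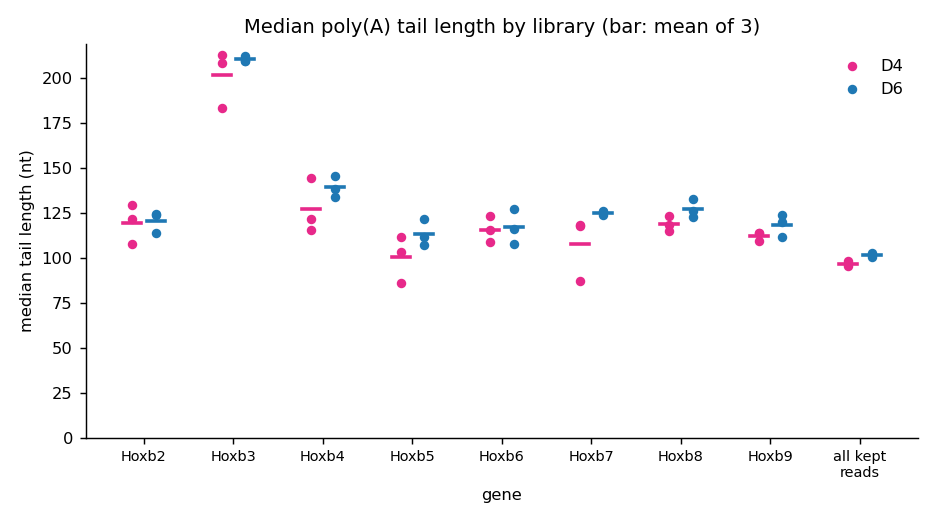
Median poly(A) tail length in nt (y axis, from 0) of Hoxb2 to Hoxb9 and of all kept reads (x axis), with 1 point per library at D4 and D6 and a bar at the mean of 3. Hoxb3 lies between 184 and 213 nt, and no library of another member exceeds 146 nt.

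The reads fell on 16 annotated transcripts of the members. Of these, 11 had at least 30 reads, and 11 of 11 were higher at D6 than at D0, against 15.0% of the 12356 transcripts tested, a direction that the filter set for them as it did for the genes. For Hoxb2, Hoxb4, Hoxb7 and Hoxb8 1 transcript took at least 99.1% of the reads in every D4 and D6 library. Hoxb5, Hoxb6 and Hoxb9 each had 2. Between D4 and D6, 0 of 6 transcript shares of these 3 genes passed (limma; none of 4467 shares passed, 0.0%; by the unadjusted p at 0.05, 163 were larger and 173 smaller). The share of the Hoxb5 retained-intron transcript (ENSMUST00000190470.1) was 18.9, 33.9 and 46.4% at D4 and 41.5, 56.2 and 43.4% at D6, a difference of 14.0 ± 7.48 percentage points (adjusted p = 0.731).

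Not all of these reads could tell the transcripts apart, and few or none did on the second transcripts of Hoxb5, Hoxb6 and Hoxb9. Of the 396 reads placed on the Hoxb5 retained-intron transcript, 3 (0.758%) began early enough to enter the intron by 10 nt, and 99.5% had a mapping quality under 10. On the spliced Hoxb5 transcript (ENSMUST00000049272.4) 390 of 522 reads reached the first exon. For Hoxb9, 162 of 538 reads on ENSMUST00000000010.8 reached its first exon but 1 of 392 did so on ENSMUST00000174042.2, so the presence of the second form rested on that read. For Hoxb6, 221 of the 680 reads on ENSMUST00000173432.2 extended into its upstream part, which the shorter ENSMUST00000000704.5 lacks. All 193 reads on the shorter transcript had a mapping quality under 10. Its exons lie within those of the longer one, so none of these reads held sequence of the shorter form alone.

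The share of reads that reached the exons before the last one (for Hoxb6, its upstream part) was lower at D6 than at D4 for all 8 members on average, by 3.50 (Hoxb3) to 17.1 (Hoxb6) percentage points. For Hoxb7 it was 86.7, 75 and 79.5% at D4 and 71.2, 60.7 and 60% at D6, which did not overlap. This comparison was chosen after the values had been seen. The exact permutation test, 2-sided, gave p = 0.1 for Hoxb7, the smallest it allows, and 0.2 to 0.4 for the others, with Benjamini-Hochberg values of 0.343 to 0.4 over 8 comparisons. Aligned length moved with it: the median aligned length of Hoxb7 reads was 1011 to 1081 nt in the D4 libraries and 788 to 946 nt in the D6 libraries. Its part in the result was not tested.

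At the 3′ side, 88.8 to 98.96% of the reads on each of 10 of the 11 transcripts ended within 30 nt of the annotated end. This included Hoxb9, which lacks the AATAAA printed above, with 97.2% on ENSMUST00000000010.8. The exception was the spliced Hoxb5 transcript, where 67.0% did so and 163 of 522 reads (31.2%) ended more than 300 nt earlier, most often at nucleotide 1327 of 1895. Over both Hoxb5 transcripts the share at the annotated end was 80.8 ± 2.25% at D4 and 78.4 ± 4.42% at D6, with overlapping libraries. The early ends had a median tail of 116 nt and the annotated end 113 nt.

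The other genes around the pathway were counted by lists. Hox proteins bind DNA with cofactors of the Meis, Pbx and Pknox families, of which 7 of 9 rose and 0 fell between D0 and D6 (beside 19% and 18.7% of all genes), with a median log2 change of 1.70. Since the D0 libraries held 37.0% of all kept reads, an unchanged gene with 30 reads would have about 11.1 of them at D0. Meis2, with 9, fell short of that and passed the filter through the later days, whereas the other 6 that rose had 13 to 115. Meis2 went from 5.99 ± 5.43 to 124 ± 29.5 CPM (4.61 ± 0.56 log2, adjusted p = 3.85e-10) and Pbx3 from 29.2 ± 2.32 to 126 ± 31.9 (2.07 ± 0.26, adjusted p = 1.53e-09). Pbx3 was the 1 of 9 that also rose from D4 to D6, and 0 fell (beside 4.13% and 4.34% of all genes). Among 12 known regulators of Hox genes, 5 could be tested, of which 4 rose and 0 fell between D0 and D6 (beside 19% and 18.7% of all genes). Gbx2 and Rarb, with 1 and 2 reads at D0, passed the filter through the later days alone, which set their direction, whereas Rara and Rxra had 21 and 19 reads at D0. Rarb, a retinoic acid receptor that is itself known to be induced by retinoic acid, went from 1.23 ± 2.13 to 84.9 ± 10.4 CPM (5.56 ± 0.67, adjusted p = 3.3e-10). Rarg, another retinoic acid receptor, had too few reads for the test, 14 at D0 (9.43 CPM), none at D2 or D4 and 1 at D6. Cdx1, Cdx2, Cdx4 and Egr2 had no read in any library.

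Of 9 carriers and enzymes of retinoic acid, 7 could be tested, of which 6 rose and 0 fell between D0 and D6 (beside 19% and 18.7% of all genes). Cyp26b1, which had no read at D0, and Dhrs3, which had 2, passed the filter through the later days alone, which set their direction. From D4 to D6 they divided, with 3 higher and 2 lower (4.13% and 4.34% of all genes). Cyp26a1, which degrades retinoic acid, rose by 2.32 ± 0.26 on the log2 scale (adjusted p = 4.03e-10), and Crabp2, which carries it to the receptors, fell by 2.47 on the log2 scale, with an SE of 0.14 (adjusted p = 7.4e-23). Of 19 other Hox genes with reads, 13 had 30 reads or more. These 13 had 0 or 1 read at D0, so they passed the filter through the later days alone, which set their direction against D0, and 13 of 13 were higher at D6 (background 19%). From D4 to D6, 5 of 13 were higher (4.13%). Hoxd11 and Hoxd13 had 1 read each, both at D0, and were not tested. Hoxb13, the only other gene of the cluster, had 1 read.

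Genes outside the cluster but within 500 kb of it were counted in the same way. Of 13 with reads 8 could be tested, and at D6 against D0 2 were higher, 1 was lower and 5 did not pass, beside 19% higher and 18.7% lower over all genes, with a median log2 change of -0.09. These shares are near the background. Igf2bp1, an RNA-binding protein of growing tissue, fell by 2.25 on the log2 scale, with an SE of 0.25 (adjusted p = 4.49e-11), from 201 ± 50.9 to 42.7 ± 9.88 CPM. Snx11, a sorting nexin, rose by 1.70 ± 0.33 (adjusted p = 2.81e-05) and Cbx1, a heterochromatin protein, by 0.66 ± 0.17 (adjusted p = 0.00115). Atp5g1, a subunit of ATP synthase and the most read of the 8, stood at 633 ± 49.0 and 576 ± 62.1 CPM (-0.15 ± 0.12, adjusted p = 0.312).

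The 5 genes outside the Hox family whose level over the 12 libraries was most like the summed Hoxb level were Tshz1, Dbx1, Nr2f1, Maged1 and Hes5, with Pearson correlations of 0.991, 0.989, 0.989, 0.989 and 0.988 on log2(CPM + 1). The libraries share their days, so the correlations are a description of 4 time points. Tshz1, a zinc finger gene, went from 0 reads at D0 to 105 at D6, and Nr2f1, an orphan nuclear receptor, from 0 to 234. Dbx1, a homeobox gene of spinal cord progenitors, and Hes5, a Notch target, both had fewer reads at D6 (308 and 311) than at D4 (330 and 344). Among the members themselves, which are part of the sum, the correlation ran from 0.903 for Hoxb9 to 0.996 for Hoxb2.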

How the data were processed

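Direct RNA sequencing of 12 P19 libraries was analysed from the per-read table. The authors used Guppy for base calling, Minimap2 (version 2.20) for alignment to mm10 transcripts, Nanopolish for tails and Deeplexicon for barcodes. In the deposited table, tail lengths are in nt, mapping quality is the aligner's score, and barcode confidence is a fraction. A second table of the authors' own DESeq2 comparisons holds their fold changes and p-values and was not used. Reads with tail tag PASS, class mRNA and an assigned barcode were tallied per gene; 289260 alignments had no barcode. The tally was made here, so limma-voom (limma 3.58.1, R 4.3.3; trimmed mean of M-values, genes with at least 30 reads, no covariate) was fitted over all libraries and p-values were adjusted by Benjamini-Hochberg over all genes, with a threshold of 0.05. Tail medians and transcript shares, with at least 10 reads in each of the 6 libraries, were fitted by limma. The scripts were tested on simulated data: median fold sizes were recovered closely and few unchanged genes were called, but many small changes, falls most of all, were not called, and the recovery that the count test had to reach was lowered after it first failed. Sequences and exons were read from GENCODE M21 and RefSeq. Named genes were the 9 members with their transcripts, the 5 genes outside the Hox family most like their sum, and lists with up to 4 examples. Members and lists were chosen with earlier results of these data known. Intervals and limits cover counting error only. Alternatives were other scaling, no filter, limma-trend, mapping quality of at least 10, thinning, a replicate block and leaving out each library.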

Additional observations from a re-analysis of the deposited data

Results flagged for a closer look

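Alignments whose 3′ end stayed unaligned, which were left out of every count above, held reads of Hoxb6 and Hoxb7. At D0 these genes had no alignment of any kind, so D0 gives no background share. Hoxb6 had 298 of them at D4 and D6, which was 22.0% of its alignments from those days, and Hoxb7 had 98, or 18.8%. The share was 1.33% over all other genes and 4.86% or less for the other members. Of the Hoxb6 alignments of this kind, 253 (84.9%) stopped within 10 nt of the end of the first exon of ENSMUST00000173432.2 (chr11:96292476-96293013). They made up 27.0, 23.3 and 12.6% of Hoxb6 alignments in the D4 libraries and 21.1, 16.4 and 16.3% in the D6 libraries. At D2 there were 0 among 34 Hoxb6 alignments, which allows a share of up to 8.82%. Of the 100 Hoxb7 alignments of this kind over all days, 69 stopped at the end of its first exon (chr11:96286623-96287127). No cause was tested.

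Separately, 8 reads had alignments to 2 Hoxb genes, 7 of them at D6 and 1 at D4. They joined Hoxb4 and Hoxb3 (2 reads), Hoxb6 and Hoxb5 (2), Hoxb7 and Hoxb6 (2), Hoxb7 and Hoxb3 (1) and Hoxb9 and Hoxb7 (1).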

How the results depend on the processing

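The numbers of members called kept within 1.5 times under every alternative except limma-trend from D4 to D6, where 4 members were called in place of 7. Leaving out each library in turn left the counts at 8 (each later day against D0), 6 (D4 against D2), 7 (D6 against D4), 11 transcripts, 0 tails and 0 isoform shares. The replicate numbers did not pair the samples (18 same-numbered pairs correlated between -0.11 and 0.109), and with a replicate block 8, 8, 8, 6 and 7 members were called. With mapping quality of at least 10, Hoxb6 at D6 against D4 turned to -0.17 log2 and its tail difference to -2.13 nt; that filter left too few transcripts for isoform shares. Uncalled tail differences turned sign when 1 library was left out, ranging from -4.81 to 6.07 nt for Hoxb2 (negative without D4 replicate 1, D6 replicate 1 or D6 replicate 2), from -0.135 to 14.4 nt for Hoxb3 (negative without D4 replicate 2) and from -4.00 to 5.95 nt for Hoxb6 (negative without D4 replicate 3 or D6 replicate 1). Scaling by library totals moved the median log2 change of all genes by 0.17 (D2 against D0), 0.11 (D4 against D0), 0.26 (D6 against D0) and 0.14 (D6 against D4). Over all genes, 384 were higher at D6 than at D4, but 127 by limma-trend, 584 by library totals and 87 after thinning to the smallest library. Without a filter on low counts Hoxb1 passed at D2 (adjusted p = 0.0272) on 1 read. The D2 libraries, with 7 to 97 reads for each tested member, limit what can be said of that day.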

Other observations

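Read starts of several members gathered where the last exon begins. Within 10 nt of that exon edge lay 309 of 1617 Hoxb2 read starts (19.1%), 54 of 399 Hoxb4 starts (13.5%) and 43 of 358 Hoxb7 starts (12.01%). Windows of the same width nearby held 22.1, 3.99 and 4.20 starts on average. For Hoxb5 the edge held 14 of 522 starts (2.68%) beside 4.20 nearby, and for Hoxb9 2 of 538 beside 4.31. The Hoxb2 starts at the edge came from D2 (21), D4 (121) and D6 (167). These windows were chosen after the values were seen.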
